A study of Mus musculus with 6 samples.

Results

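The genes described here make GABA, load GABA or glutamate into synaptic vesicles, or take these transmitters up from outside the cell. They are Gad1, Gad2, Slc32a1, Slc17a7, Slc17a6, Slc1a1, Slc1a2, Slc1a3 and Slc6a11, the rows of those names in the deposited table, which makes 9 of its 24841 genes. All 9 were listed, and each was followed in every nucleus, by cell class and by genotype. The study profiled single nuclei of dissected, frozen striatum, the input structure of the basal ganglia, from wild-type mice and from Celsr3 heterozygous mice, Celsr3 being a cadherin gene that acts in axon guidance. There were 3 libraries of each genotype, named below as wild-type or heterozygous replicates 1, 2 and 3. The labels name no age, sex, strain, treatment or litter, no allele beyond the word heterozygous, and no agent or deletion that both groups share. They call the libraries biological replicates without stating that each came from a separate mouse, so p-values measure the spread between libraries, which may in part be technical.

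Glutamate and GABA are the main fast excitatory and inhibitory transmitters of the brain. GABA is made from glutamate by the decarboxylases GAD67 (Gad1) and GAD65 (Gad2) and is loaded into vesicles by VGAT (Slc32a1), while glutamate is loaded by VGLUT1 (Slc17a7), typical of cortical neurons, and VGLUT2 (Slc17a6), typical of thalamic and other subcortical neurons. After release, glutamate is cleared by EAAT2 or GLT-1 (Slc1a2), EAAT1 or GLAST (Slc1a3) and EAAT3 or EAAC1 (Slc1a1), and GABA by transporters that include the astrocytic GAT-3 (Slc6a11). Nearly all striatal neurons are GABAergic medium spiny neurons (MSNs), and their glutamate input comes from cortex and thalamus, whose cell bodies lie outside the striatum.

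On the GRCm38 build, GENCODE places 4 of the genes on chromosome 2, all on the plus strand. These are Gad1 (chr2:70553072-70602014), Gad2 (chr2:22622205-22693874), Slc32a1 (chr2:158610767-158615748) and Slc1a2 (chr2:102658659-102790784). Slc17a7 (chr7:45163949-45176142) and Slc17a6 (chr7:51622006-51671119) share chromosome 7, Slc1a1 lies at chr19:28835049-28913960 and Slc6a11 at chr6:114131241-114249952, all on the plus strand. Slc1a3 lies on the minus strand at chr15:8634124-8710764. All 9 are protein-coding, and the table has 1 row a gene. Whether intronic reads were counted is not given in the sources used here.

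The promoters of the 3 GABA genes are shown because they encode the enzymes and the vesicular transporter of GABA neurons, and those of Slc1a2 and Slc6a11 because both were highest in astrocyte-like nuclei while their upstream sequences differ. Each line gives the 250 bases before a RefSeq transcript start (GRCm38.p6, plus strand, 5′ to 3′), with every CG in capitals.
Gad1, chr2:70561879-70562128: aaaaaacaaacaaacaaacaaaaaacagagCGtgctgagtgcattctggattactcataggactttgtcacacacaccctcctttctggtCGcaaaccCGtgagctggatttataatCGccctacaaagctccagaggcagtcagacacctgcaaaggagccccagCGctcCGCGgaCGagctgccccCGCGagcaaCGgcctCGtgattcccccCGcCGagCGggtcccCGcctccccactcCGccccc
Gad2, chr2:22622077-22622326: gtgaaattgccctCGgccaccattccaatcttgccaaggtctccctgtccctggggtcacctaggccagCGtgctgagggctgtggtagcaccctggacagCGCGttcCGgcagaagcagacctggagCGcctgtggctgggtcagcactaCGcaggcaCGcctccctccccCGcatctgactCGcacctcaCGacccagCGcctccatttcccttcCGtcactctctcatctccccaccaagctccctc
Slc32a1, chr2:158610508-158610757: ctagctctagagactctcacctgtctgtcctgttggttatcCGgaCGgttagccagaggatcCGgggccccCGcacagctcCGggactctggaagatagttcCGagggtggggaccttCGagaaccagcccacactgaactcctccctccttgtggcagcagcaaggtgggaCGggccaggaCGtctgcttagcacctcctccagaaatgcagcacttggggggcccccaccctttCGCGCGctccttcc
Slc1a2, chr2:102706188-102706437: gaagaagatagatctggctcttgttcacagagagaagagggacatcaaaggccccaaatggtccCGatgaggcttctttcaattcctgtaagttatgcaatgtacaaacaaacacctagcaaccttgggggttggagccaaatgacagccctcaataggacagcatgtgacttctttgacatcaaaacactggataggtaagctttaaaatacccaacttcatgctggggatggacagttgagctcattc
Slc6a11, chr6:114130991-114131240: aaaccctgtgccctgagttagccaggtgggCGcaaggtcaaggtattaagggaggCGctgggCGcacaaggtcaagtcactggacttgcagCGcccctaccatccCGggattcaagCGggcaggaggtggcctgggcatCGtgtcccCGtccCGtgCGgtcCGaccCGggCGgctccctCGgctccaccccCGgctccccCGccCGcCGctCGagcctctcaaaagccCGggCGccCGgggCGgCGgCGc
The GABA genes Gad1, Gad2 and Slc32a1 had 17, 13 and 12 CG, where the median of 32851 RefSeq mouse promoters was 6 and 33.5% held at least 12. Slc1a2 had 1 CG and Slc1a3 had 2, against 25 in Slc6a11 and 27 in Slc1a1. At least 2 CG stood in 81.2% of all promoters, and at least 25 in 10.7%. Besides CG, 4 motifs were searched on both strands, and none of them contains CG or another of them. The homeodomain core TAATTA was in 0 of the 3 GABA promoters and in 4.84% of all promoters. TATAAA had 1 match in Gad1 and 1 in Slc1a3 and stood in 12.4% of all promoters. ACAAAG had 2 matches in Gad1 (16.5% of all promoters) and CAGATG had 1 in Gad2 (14.4%). Beyond these, the second Slc17a6 entry had 1 match of every motif but TATAAA, and the other promoters of the 9 genes had none. All 9 genes matched a RefSeq entry, with 10 entries in all because Slc17a6 has 2. The RefSeq start of Slc1a2 used here lies 47779 bases inside the GENCODE gene and that of Gad1 9057 bases inside, so other starts of these genes are not shown.

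The table held 48834 nuclei, 7735 to 8875 a library, with library medians of 2426.5 (wild-type replicate 1) to 2998 genes per nucleus. Of these, 48017 were kept after leaving out doublet-like nuclei, and 274 barcodes occurred in more than 1 library. From their nearly level totals, the values were taken to be depth-corrected by the authors, so a level below is a mean corrected value per nucleus, averaged over libraries with its SD, and genes are compared across classes, never with each other. Nuclei were clustered without the 9 genes and without 27 other glutamate and GABA genes, and classes were named X-like from markers that exclude them. Still, clusters come from the same nuclei, so differences between classes are given as descriptions with no test. The libraries differed in their make-up of classes. Glutamatergic neuron-like nuclei numbered 195 to 1505 a library, thalamic or other subcortical glutamatergic-like nuclei 0 to 255, and choroid plexus-like nuclei 0 to 128. Celsr3 itself was lower in all 3 heterozygous libraries, at 0.0614, 0.0693 and 0.0645 over all nuclei against 0.0744, 0.0996 and 0.108 in the wild-type ones. It was not called by the test used below, with a limma adjusted p of 0.457 in all nuclei, 0.138 in D1 and 0.265 in D2 MSN-like nuclei and 0.653 in glutamatergic neuron-like nuclei.

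**Figure D1:**
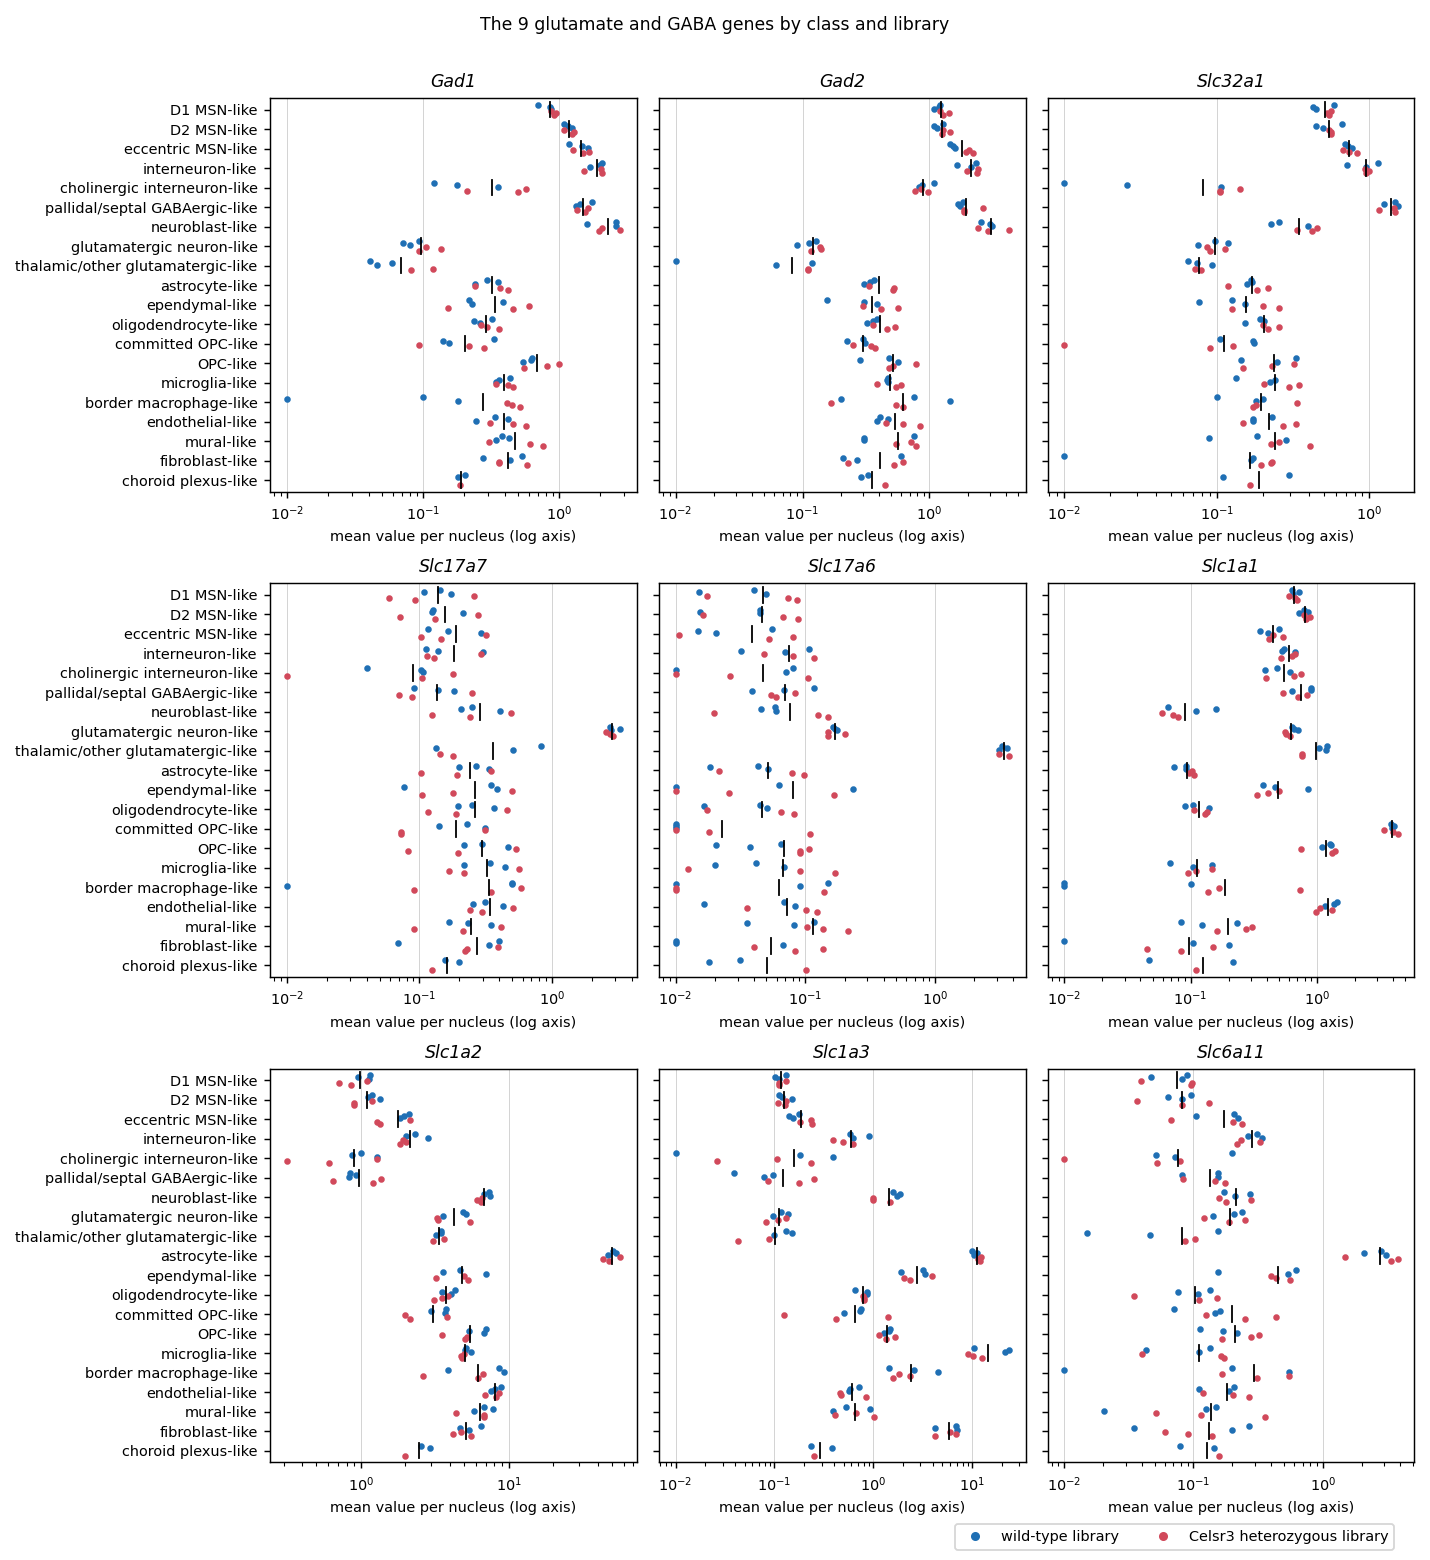
Mean corrected value per nucleus (log axis) of each of the 9 genes in 20 classes. Each dot is 1 library (blue, wild type; red, Celsr3 heterozygous), the bar is the mean over libraries, and a library at less than 0.01 is drawn at 0.01. Slc1a2 and Slc6a11 stand highest in astrocyte-like nuclei, Slc17a7 and Slc17a6 in different glutamatergic classes, and Slc1a3 in both microglia-like and astrocyte-like nuclei.

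Among the named classes, the GABA-synthesising enzymes were highest in classes other than the MSNs that make up most striatal neurons. Gad1 averaged 2.28 ± 0.47 in neuroblast-like nuclei, 1.90 ± 0.24 in interneuron-like and 1.51 ± 0.16 in pallidal or septal GABAergic-like nuclei (SD, n = 6 libraries each), each overlapping its neighbour in the order. Gad2 followed the same order, at 3.03 ± 0.65, 2.14 ± 0.30 and 1.94 ± 0.34. Eccentric MSN-like nuclei came next with 1.45 ± 0.19 for Gad1 and 1.79 ± 0.31 for Gad2. As the most numerous named neurons, the D1 MSN-like and D2 MSN-like classes together still held the largest named part of the summed value. For Gad1 these parts were 21.3% and 24.7%, and for Gad2 23.8% and 20.2%. Unnamed cluster 28, with 364 nuclei, held 2.84% of Gad1 and 3.12% of Gad2. The 757 neuroblast-like nuclei held 4.95% and 5.06%.

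D1 MSN-like nuclei, whose axons form the direct pathway, had less Gad1 than D2 MSN-like nuclei of the indirect pathway. In D1 MSN-like nuclei, Gad1 was 0.703, 0.857 and 0.873 in wild-type and 0.875, 0.945 and 0.924 in heterozygous replicates 1 to 3. In D2 MSN-like nuclei it was 1.08, 1.17 and 1.25, and 1.09, 1.29 and 1.24. The lowest D2 library thus lay above the highest D1 library. Gad2 did not separate them, at 1.24 ± 0.11 in D1 and 1.25 ± 0.12 in D2 MSN-like nuclei. The share of nuclei with any Gad1 value was 58.0% and 69.9%, and with any Gad2 value 68.0% and 68.6%, at medians of 3390 and 3268 genes per nucleus.

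Within each MSN class, Gad2 differed between clusters. In D1 MSN-like cluster 2, led by Gpr139 and Dkk2, Gad2 was 0.886 ± 0.094, against 1.51 ± 0.15 in cluster 3, led by Cftr and the prodynorphin gene Pdyn, and 1.65 ± 0.19 in cluster 14, led by Impg1 and Gm16083. In D2 MSN-like cluster 0, led by Drd2 and Oprd1, it was 1.01 ± 0.075, against 1.63 ± 0.15 in cluster 10 and 1.59 ± 0.13 in cluster 11. No library of clusters 0 or 2 reached any library of the other 4 clusters. Gad1 did not follow this split, since cluster 3, high in Gad2, had the lowest Gad1, at 0.723 ± 0.089. Slc32a1 ran from 0.448 ± 0.075 in cluster 2 to 0.645 ± 0.052 in cluster 11.

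**Figure D2:**
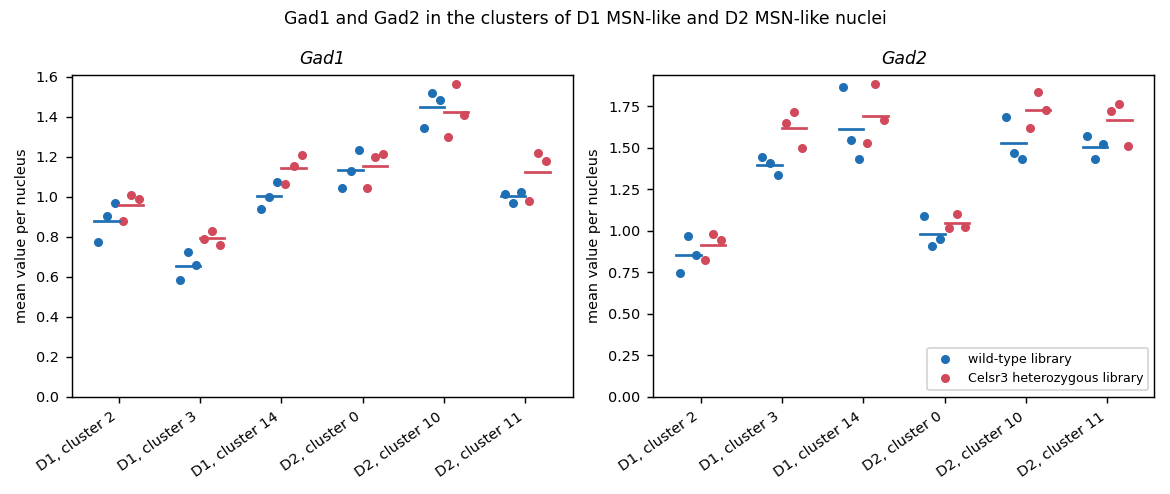
Mean corrected value per nucleus of Gad1 (left) and Gad2 (right) in the 3 clusters of D1 MSN-like and the 3 of D2 MSN-like nuclei. Dots are libraries and short bars group means (blue, wild type; red, Celsr3 heterozygous), and Gad2 is at most 1.10 in the libraries of clusters 2 and 0 and at least 1.33 in those of the other 4.

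Gad2 differed more widely between interneuron-like clusters. Cluster 30, led by Vip and Adarb2, had Gad2 at 3.72 ± 0.44 and Gad1 at 2.61 ± 0.47, while cluster 34, led by Nos1, Npy and Sst, had 0.836 ± 0.22 and 0.745 ± 0.14. Slc32a1 was nearly level across them, at 0.967 ± 0.16 in cluster 30, 0.961 ± 0.21 in cluster 22 (led by Sfta3-ps, Il1rapl2 and Kit) and 0.885 ± 0.17 in cluster 34. The Nos1 cluster was thus low in both enzymes and not in the vesicular transporter.

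Among the named classes, Slc32a1 was highest in pallidal or septal GABAergic-like nuclei, at 1.39 ± 0.15. No library overlapped the next class, interneuron-like nuclei at 0.946 ± 0.14. The 414 pallidal or septal GABAergic-like nuclei held 2.95% of its summed value. Unnamed clusters 25 and 28, with 477 and 364 nuclei, held 3.37% and 2.73%. D2 and D1 MSN-like nuclei had 0.543 ± 0.071 and 0.514 ± 0.065. Neuroblast-like nuclei, first for both enzymes among the named classes, had only 0.347 ± 0.091 of Slc32a1. Among them 51.0% held both Gad1 and Gad2, but 16.6% held both Gad2 and Slc32a1. In D1 MSN-like nuclei these shares were 39.8% and 28.5%.

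Cholinergic interneuron-like nuclei, 196 in all and 25 to 39 a library, had more Gad2 than glutamatergic neuron-like nuclei, with little Gad1 or Slc32a1. Gad2 was 1.08, 0.872 and 0.821 in wild-type and 0.857, 0.763 and 0.974 in heterozygous replicates 1 to 3, above the 0.121 ± 0.019 of glutamatergic neuron-like nuclei in every library. They overlapped the range of border-associated macrophage-like nuclei (0.167 to 1.45 by library, from 93 nuclei). Gad1 was 0.323 ± 0.18, within the range of several glial classes. Slc32a1 was 0.0810 ± 0.055, overlapping both glutamatergic classes and at 0 in wild-type replicate 1. Among these nuclei 60.7% had a Gad2 value, 24.3% a Gad1 value and 8.1% an Slc32a1 value, at a median of 3818 genes. A Gad2 value was present in 10.9% of glutamatergic neuron-like nuclei (median 3570 genes) and 22.7% of border-associated macrophage-like nuclei (median 1893 genes). The third vesicular glutamate transporter gene, Slc17a8 (VGLUT3), was at 3.47 ± 0.62 in this class.

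Low values of the GABA genes were also found outside GABAergic classes. In glutamatergic neuron-like nuclei, with a median of 3570 genes, 9.0% had a Gad1 value and 10.9% a Gad2 value. The shares were higher in several glial classes, at 18.0% and 20.7% in astrocyte-like nuclei (median 2028 genes) and 15.4% and 19.9% in oligodendrocyte-like nuclei (median 1814). The part of free RNA in these shares was not tested. OPC-like nuclei stood above the other glia for Gad1, at 0.695 ± 0.18 with 35.5% of nuclei above 0, and their range overlapped that of D1 MSN-like nuclei. In the 28 OPC-like nuclei of heterozygous replicate 1, the 8 pan-MSN markers summed to 23.8, against 10.7 to 13.4 in the other libraries. The part of these markers in the Gad1 level was not tested.

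The vesicular glutamate transporters marked different classes. Slc17a7 was 2.75, 3.28 and 2.81 in wild-type and 2.55, 2.73 and 2.91 in heterozygous replicates 1 to 3 of glutamatergic neuron-like nuclei, where 93.7% of nuclei had a value. In the thalamic or other subcortical glutamatergic-like class, wild-type replicates 1 to 3 had Slc17a6 at 3.29, 3.60 and 3.11, and heterozygous replicates 2 and 3 at 3.11 and 3.70, with 96.7% of nuclei above 0. Heterozygous replicate 1 held no nucleus of that class. Each gene was far lower in the other class, at 0.168 ± 0.019 for Slc17a6 in glutamatergic neuron-like nuclei and 0.357 ± 0.30 for Slc17a7 in the thalamic or other class. No library overlapped between the first class and the next for either gene.

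Low Slc17a6 accompanied high Slc17a7 in some glutamatergic clusters and not in others. It was 0.419 ± 0.11 in cluster 32, led by Nr4a2 and Ntng2, and 0.333 ± 0.078 (n = 5) in cluster 29. It was 0.0481 ± 0.024 in cluster 16, led by Trabd2b and with Ccn2 among its top genes, close to the 0.0469 ± 0.029 of D1 MSN-like nuclei. Slc17a7 ran from 2.07 ± 0.38 (n = 5) in cluster 42 to 3.33 ± 0.66 in cluster 20, and the ranges of most clusters overlapped.

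Slc17a6 and Gad2 were both present in cluster 7, which was left unnamed, with 2096 nuclei kept and led by Baiap3, Glra3 and Zim1. Slc17a6 was 0.685 ± 0.095 there, and 28.2% of nuclei had an Slc17a6 value (4.44% in D1 MSN-like nuclei, at medians of 3706 and 3390 genes) while 66.2% had a Gad2 value. The same nucleus held both in 8.65% of nuclei, where independent occurrence, computed from shares averaged over the libraries, would give 18.6%. Gad1 and Gad2 occurred together in 39.8% against 32.7%. In the thalamic or other class, Slc17a6 and Gad2 occurred together in 6.74% against 7.26%. Cluster 7, doublet-like nuclei included, counted 74 nuclei of heterozygous replicate 1 and 982 of heterozygous replicate 2, and it held 18.6% of the summed Slc17a6 value.

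Slc17a7 outside glutamatergic classes followed the library. Over all nuclei it was 0.440, 0.258 and 0.603 in wild-type and 0.825, 0.174 and 0.358 in heterozygous replicates 1 to 3. In D1 MSN-like nuclei it was 0.142, 0.109 and 0.174, and 0.257, 0.0592 and 0.0920. In oligodendrocyte-like nuclei it was 0.248, 0.195 and 0.366, and 0.460, 0.116 and 0.187. Heterozygous replicate 1, with the highest value over all nuclei, was highest in each class named here, and heterozygous replicate 2 lowest, while glutamatergic neuron-like nuclei did not show this order. Between 8.9% and 18.4% of nuclei had an Slc17a7 value in the classes other than the glutamatergic ones. The part of free RNA in these low values was not tested.

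**Figure D3:**
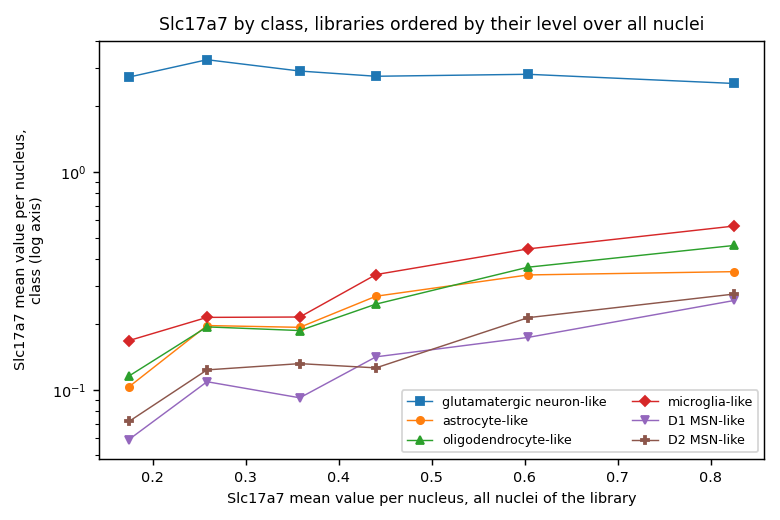
Slc17a7 mean corrected value per nucleus in 6 classes (log axis) against its mean over all nuclei of the same library, with 1 point per class and library joined by class. Glutamatergic neuron-like nuclei stay between 2.55 and 3.28, while the other 5 classes are lowest in the library at 0.174 and highest in the library at 0.825.

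Slc1a2, the main glutamate transporter of forebrain astrocytes, was 50.5, 53.4 and 46.9 in wild-type and 57.0, 43.7 and 47.7 in heterozygous replicates 1 to 3 of astrocyte-like nuclei. The groups overlapped. The next class, endothelial-like nuclei, had 8.05 ± 0.73, and astrocyte-like nuclei held 66.5% of the summed value. Slc1a2 was above 0 in much of every class, from 46.3% of cholinergic interneuron-like to 100% of astrocyte-like nuclei, so a value above 0 did not mark a class.

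Slc6a11 was 2.79 ± 0.86 in astrocyte-like nuclei and 0.453 ± 0.17 in the next class, ependymal-like nuclei, with no overlap. Astrocyte-like nuclei held 72.0% of its summed value. The libraries also differed in the make-up of this class. Cluster 8, with Etnppl and the angiotensinogen gene Agt among its top genes, had 6.44 ± 0.81, against 1.42 ± 0.21 in cluster 4 and 0.889 ± 0.065 in cluster 17, led by Thbs4 and Tnc. Cluster 8 made up 5.06% of the astrocyte-like nuclei of heterozygous replicate 1, the library with the lowest Slc6a11 of 1.49, and 21.3% to 43.4% in the other 5 libraries. Slc1a2 was lower in cluster 8 than in the others, at 26.2 ± 3.5 in cluster 8 against 60.0 ± 1.6 in cluster 4 and 58.2 ± 4.6 in cluster 17. No library overlapped between cluster 8 and clusters 4 and 17 for either gene.

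Slc1a3, known as an astrocyte gene, was as high in microglia-like nuclei. It averaged 14.5 ± 6.3 there and 11.3 ± 0.91 in astrocyte-like nuclei, and the ranges overlapped. Microglia-like values were 23.6 and 21.3 in wild-type replicates 2 and 3, and 9.05 to 12.6 in the other libraries. Fibroblast-like nuclei followed at 5.86 ± 1.3 and ependymal-like at 2.78 ± 0.80. A value was found in 92.6% of microglia-like and 97.8% of astrocyte-like nuclei, against 32.5% of oligodendrocyte-like nuclei. The astrocyte markers, 12 genes with none at 0, summed to 8.51 to 10.0 in microglia-like nuclei and 39.1 to 45.6 in astrocyte-like nuclei. In D1 and D2 MSN-like nuclei, with Slc1a3 at 0.116 and 0.125, they summed to 7.63 to 8.59 and 7.70 to 8.51. Astrocyte-like nuclei held 53.1% of the summed Slc1a3 and microglia-like nuclei 29.4%.

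Slc1a1, the neuronal glutamate and cysteine transporter, was highest in committed oligodendrocyte precursor-like nuclei. It was 3.84, 4.05 and 3.94 in wild-type and 3.38, 4.02 and 4.35 in heterozygous replicates 1 to 3. Every one of these lay above every library of the next classes, endothelial-like at 1.22 ± 0.18 and OPC-like at 1.18 ± 0.23. Mature oligodendrocyte-like nuclei had 0.117 ± 0.020 and astrocyte-like nuclei 0.0938 ± 0.011. D2 and D1 MSN-like nuclei had 0.810 ± 0.054 and 0.659 ± 0.045 and held 23.0% and 22.1% of the summed value. A neighbouring gene, 4430402I18Rik, overlaps Slc1a1 by 20.9 kb on the opposite strand and was also highest in the committed precursors, at 2.45. The sources used here do not state whether counting used strand, so reads of the overlap cannot be assigned with certainty. The antisense genes Gad1os, Gm14205 and Gm13872 overlap Gad1, Slc32a1 and Slc1a2 in the same way, at class means of at most 0.359, 0.0148 and 0.635.

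Across 15 classes, Gad1 and Gad2 had the most similar profiles among the 9 genes (Pearson r = 0.956 on log2 means), and Slc32a1 was closer to Gad1 (0.858) than to Gad2 (0.774). These points share libraries and depth correction, and r is given as a description. Over 13695 genes, 4430402I18Rik was most like Slc1a1 (0.959), Nrn1 most like Slc17a7 (0.970), Dio2 most like Slc6a11 (0.949) and Cpe most like Slc1a2 (0.949). Abca1 was most like Slc1a3 (0.913), Caly most like Slc32a1 (0.885) and Ttc9b most like Slc17a6 (0.825), the last without the thalamic or other class, which was not among the 15. After Gad1, the genes most like Gad2 were Dlx6os1 (0.902) and Dlx6 (0.877), from a homeobox locus active in forebrain GABAergic neurons.

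The comparison of heterozygous with wild-type libraries called none of the 9 genes in any of the 16 populations tested, which were all nuclei together and the 15 classes that had 20 or more nuclei in each of the 6 libraries. Tests were limma fits on log2(mean + 0.01), and an adjusted p under 0.05 (Benjamini-Hochberg, over all genes of a population) counted as a call. Over all genes, 0.0149% were called in D1 MSN-like nuclei, 0.00784% in D2 MSN-like nuclei and 0% in each of the other 14 populations. Of 109 tests of a member in a population, 9 had an unadjusted p under 0.05, against 6.68% of all gene tests, and in 13 the 2 groups of libraries did not overlap, against 12.8%. In cholinergic interneuron-like nuclei no member passed the filter on low values.

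In all nuclei no member had groups that did not overlap, where 19.4% of all genes did, and none had an unadjusted p under 0.05. Changes ran from -0.17 for Slc1a3 to 0.41 for Slc17a6. These values mix level and cell make-up, since the share of each class differed between libraries. The smallest adjusted p was 0.516, for Gad2 (log2 change 0.24 ± 0.12 SE).

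Gad2 was higher in heterozygous libraries in 13 of the 13 populations where it was tested, by 0.10 to 0.55 on the log2 scale, and none of these was called. The populations come from the same 6 libraries and are not independent. Most genes shared this direction in several of them, with 69.1% of all genes higher in all nuclei, 65.0% in D1 and 60.1% in D2 MSN-like nuclei, and 51.5% in eccentric MSN-like nuclei. Gad1 was higher in 12 of 13 populations. The largest Gad2 change was that of endothelial-like nuclei (0.55 ± 0.23 SE, limma adjusted p = 0.976), with overlapping groups. In eccentric MSN-like nuclei Gad2 was 1.44, 1.53 and 1.59 in wild-type and 2.05, 1.95 and 2.19 in heterozygous replicates 1 to 3. The groups did not overlap, as was the case for 10.6% of genes in that class, and the change was 0.44 ± 0.12 SE (limma adjusted p = 0.731). The same direction was seen where Gad2 was low, at 0.41 ± 0.17 SE in astrocyte-like nuclei (limma adjusted p = 0.748). In pallidal or septal GABAergic-like nuclei the groups also did not overlap (0.26 ± 0.17 SE, limma adjusted p = 0.904), where 11.2% of genes had such groups.

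Gad1 in D1 MSN-like nuclei was lower in all wild-type libraries than in any heterozygous one, by the values given above. The change was 0.18 ± 0.095 SE (limma adjusted p = 0.574), and 16.3% of genes in that class had groups that did not overlap. The gap between wild-type replicate 3, at 0.873, and heterozygous replicate 1, at 0.875, was small. Wild-type replicate 1, the lowest, had 47.6% of its D1 MSN-like nuclei in cluster 3, where Gad1 was lowest, against 32.6% to 45.7% in the other libraries. With the clusters weighted equally the change was 0.19, and without wild-type replicate 1 it was 0.08 (limma adjusted p = 0.657). That last fit called 214 of 13520 genes, against 2 in the main fit. D2 MSN-like nuclei had no such member, where 14.4% of genes did. The genotype change in D1 minus that in D2 MSN-like nuclei was 0.13 ± 0.069 SE for Gad1 (limma adjusted p = 0.917) and 0.08 ± 0.070 SE without wild-type replicate 1 (limma adjusted p = 0.926), and 0% of 12696 genes were called for this difference.

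Slc1a2 was lower in heterozygous libraries in 14 of 15 populations, none of them called. These populations share the same 6 libraries and are not independent. By population, 46.3% (neuroblast-like) to 69.1% (all nuclei) of all genes were higher in heterozygous libraries. Slc17a7 was lower in 11 of 12 populations, also without a call. In OPC-like nuclei Slc1a2 was 6.98, 5.42 and 6.80 in wild-type and 3.54, 5.23 and 5.04 in heterozygous replicates 1 to 3. The groups did not overlap, as for 10.4% of genes, and the change was -0.49 ± 0.18 SE (limma adjusted p = 0.872). Astrocyte markers in these OPC-like nuclei summed to 4.60 to 5.27 in wild-type and 5.14 to 6.64 in heterozygous libraries. Heterozygous replicate 1, the lowest, had 28 OPC-like nuclei, in which the 8 pan-MSN markers summed to 23.8, against 10.7 to 13.4 in the other libraries. Without that library the change was -0.31 ± 0.13 SE (limma adjusted p = 0.832). In D2 MSN-like nuclei the change was -0.30 ± 0.12 SE (limma adjusted p = 0.526), and in interneuron-like nuclei -0.30 ± 0.13 SE (limma adjusted p = 0.809). In the interneuron-like class the groups did not overlap, as for 11.8% of genes, and the change was -0.17 without wild-type replicate 3, -0.14 with doublet-like nuclei kept and -0.47 with clusters weighted equally. In astrocyte-like nuclei, which hold most of the transcript, the change was -0.03 ± 0.11 SE (limma adjusted p = 0.980).

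**Figure D4:**
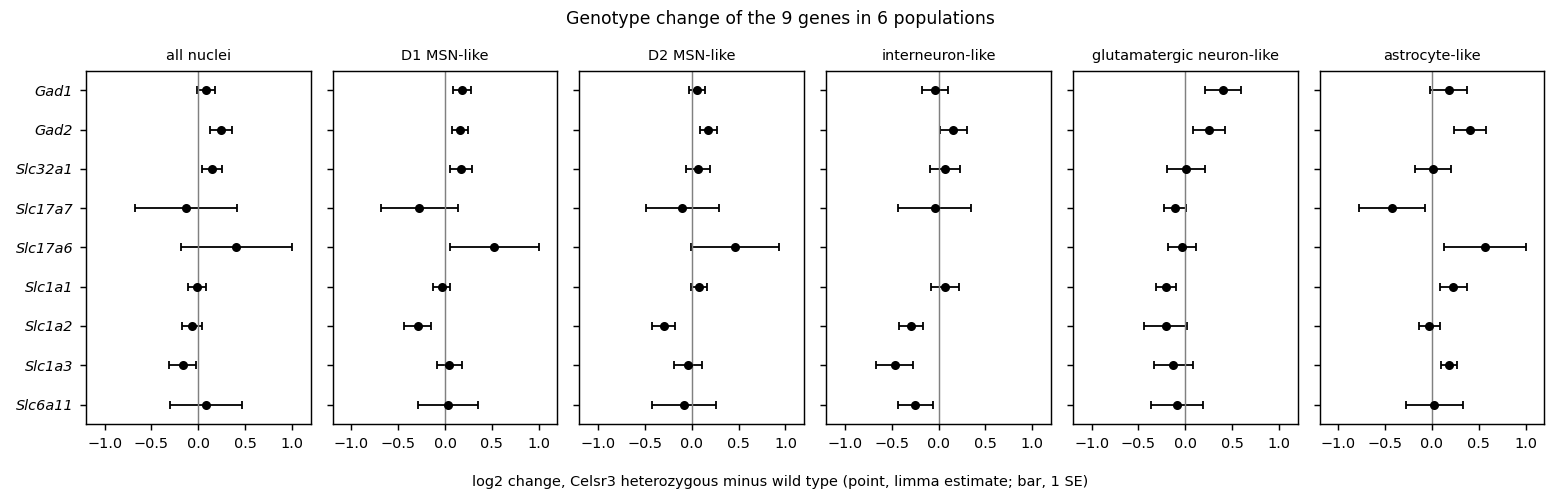
Log2 change (Celsr3 heterozygous minus wild type) of the 9 genes in 6 populations, with points for the limma estimate and bars for 1 SE, over 3 libraries a group. No adjusted p was below 0.516, Gad2 lies to the right of 0 in all 6 panels and Slc1a2 to the left of 0 in all 6; Slc17a6 did not pass the filter in interneuron-like nuclei.

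Slc1a3 had the largest change of a member in any class, in microglia-like nuclei. It was 10.5, 23.6 and 21.3 in wild-type and 9.05, 10.2 and 12.6 in heterozygous replicates 1 to 3. Wild-type replicate 1 lay among the heterozygous libraries, so the groups overlapped. The fit gave -0.73 ± 0.23 SE (limma adjusted p = 0.758), and -1.09 ± 0.12 SE without wild-type replicate 1 (limma adjusted p = 0.00308), a fit chosen after the values were seen in which 4 of 8297 genes were called. Medians followed the means. The median nucleus held 20 and 19 in wild-type replicates 2 and 3, 8 in wild-type replicate 1, and 7, 8 and 10 in heterozygous replicates. The 8 microglia markers summed to 49.7 to 52.3 in wild-type libraries, replicate 1 included, and to 39.3, 40.1 and 47.6 in heterozygous ones. Their part in the result was not tested. Slc1a2 was the 1 member whose groups did not overlap in this class (-0.12 ± 0.084 SE, limma adjusted p = 0.923), where 10.1% of genes did the same.

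In astrocyte-like nuclei Slc1a3 was 10.0, 11.2 and 10.5 in wild-type and 12.4, 11.4 and 12.04 in heterozygous replicates 1 to 3, without overlap, as for 12.3% of genes. The change was 0.18 ± 0.085 SE (limma adjusted p = 0.803). The wild-type mean of Slc1a3 was 12.8 in cluster 4, 7.66 in cluster 8 and 8.54 in cluster 17. Cluster 4 made up 42.4%, 62.4% and 55.6% of the class in wild-type and 80.0%, 43.9% and 40.1% in heterozygous replicates 1 to 3. The part of this make-up in the change was not tested. Slc1a1 also did not overlap in this class (0.23 ± 0.15 SE, limma adjusted p = 0.848), at group means of 0.0857 and 0.102. In cluster 8 Slc1a3 was 7.68, 7.64 and 7.65 in wild-type and 10.2, 10.5 and 11.5 in heterozygous replicates. Wild-type libraries were nearly equal there, and every heterozygous one was higher. The median nucleus held 7 in each wild-type library and 9, 10 and 10 in heterozygous ones. Fitted on its own after these values were seen, cluster 8 gave 0.49 ± 0.091 SE (limma adjusted p = 0.259), with 0% of 6412 genes called and 13.2% without overlap. Gad1 and Gad2, both low there, also did not overlap there. Heterozygous replicate 1 had 40 nuclei in this cluster and the other libraries 162 to 416. The change was 0.10 ± 0.073 SE in cluster 4, where the groups also did not overlap, as for 569 higher and 430 lower genes of 8776. In cluster 17 it was -0.03 ± 0.11 SE, with overlapping groups. A difference between clusters was not tested. Astrocyte markers in cluster 8 summed to 50.3 to 55.9 in wild-type and 45.9 to 55.1 in heterozygous libraries.

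Neuroblast-like nuclei had less Slc1a3 in heterozygous libraries, at 1.00, 0.993 and 1.49 against 1.60, 1.86 and 1.74. The groups did not overlap, as for 9.87% of genes in this class, and the change was -0.60 ± 0.17 SE (limma adjusted p = 0.636). Astrocyte markers in them summed to 4.61 to 5.33 in wild-type and 3.96 to 4.89 in heterozygous libraries, and their part in the result was not tested. In interneuron-like nuclei the log2 change of Slc1a3 was -0.47 ± 0.20 SE (limma adjusted p = 0.809), with overlapping groups. Slc1a3 was 0.897 ± 0.21 in cluster 22 of this class against 0.395 ± 0.24 and 0.175 ± 0.062 in clusters 30 and 34, and cluster 22 made up 31.6% to 63.0% of the class by library. The change was -0.48 with clusters weighted equally, -0.28 without wild-type replicate 2, -0.30 without heterozygous replicate 1 and -0.27 with doublet-like nuclei kept. In eccentric MSN-like nuclei the direction was opposite and the groups did not overlap, at means of 0.157 in wild-type and 0.218 in heterozygous libraries (0.44 ± 0.21 SE, limma adjusted p = 0.941).

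**Figure D5:**
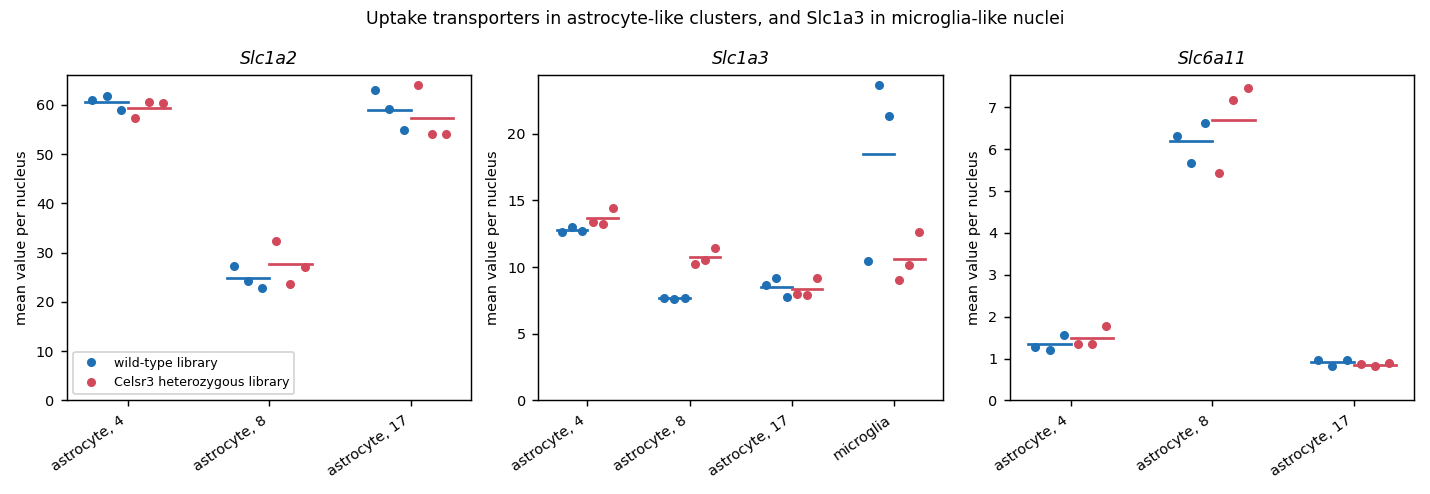
Mean corrected value per nucleus of Slc1a2, Slc1a3 and Slc6a11 in astrocyte-like clusters 4, 8 and 17, and of Slc1a3 in microglia-like nuclei. Dots are libraries and short bars group means (blue, wild type; red, Celsr3 heterozygous); in cluster 8 Slc1a3 lies at 7.64 to 7.68 in wild-type and 10.2 to 11.5 in heterozygous libraries, while in microglia-like nuclei wild-type replicate 1 lies at 10.5, apart from 23.6 and 21.3.

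In glutamatergic neuron-like nuclei neither vesicular transporter separated the genotypes. Slc1a1 was 0.631, 0.656 and 0.712 in wild-type and 0.553, 0.568 and 0.610 in heterozygous replicates, without overlap, as for 11.3% of genes (change -0.20 ± 0.10 SE, limma adjusted p = 0.945). Gad1, at low levels there, was the other member without overlap. The make-up of this class differed, with cluster 12 at 57.3% of it in heterozygous replicate 2 and 1.57% in heterozygous replicate 3.

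The other glutamate and GABA genes, a list of 27 that covers further transporters and the enzymes of glutamine, glutamate and GABA metabolism, gave no call either. Of 203 tests over the 16 populations, none passed in either direction. An unadjusted p under 0.05 was found in 10, against 6.68% of all gene tests, and groups that did not overlap in 24, against 12.8%, so neither share lay above that of all genes. In all nuclei 22 of the 27 were tested, with a median log2 change of 0.10 against 0.07 for all genes. The gene of retinal dehydrogenase, Aldh1a1, which can also make GABA, had the smallest unadjusted p of the list in both MSN classes. Its group means were 0.0428 in wild-type and 0.0226 in heterozygous D2 MSN-like nuclei (-0.68 ± 0.20 SE, limma adjusted p = 0.372), and the change in D1 MSN-like nuclei was -0.78 ± 0.29 SE (limma adjusted p = 0.436). In astrocyte-like nuclei the smallest unadjusted p values were those of Maob, a monoamine oxidase gene (-0.28 ± 0.12 SE, limma adjusted p = 0.758), and of the cystine-glutamate exchanger gene Slc7a11 (-0.26 ± 0.13 SE, limma adjusted p = 0.803). Aldh5a1, of GABA breakdown, was first in glutamatergic neuron-like nuclei (0.43 ± 0.15 SE, limma adjusted p = 0.901) and Got2 in interneuron-like nuclei (0.31 ± 0.15 SE, limma adjusted p = 0.809).

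These genes placed the rest of the pathway by class. Glul, the glutamine synthetase gene, was 1.98 ± 0.30 in astrocyte-like and 0.238 ± 0.029 in D1 MSN-like nuclei. Abat, whose enzyme breaks down GABA, was 1.50 ± 0.078 in D1 and 1.43 ± 0.073 in D2 MSN-like nuclei, 1.28 ± 0.080 in astrocyte-like and 0.149 ± 0.022 in glutamatergic neuron-like nuclei. Slc6a13, the gene of a further GABA transporter, was 2.14 ± 0.56 in fibroblast-like nuclei.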

How the data were processed

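Single-nucleus RNA was measured with 10x chemistry in 6 striatal libraries, per the labels. Per the submitters' processing notes, Cell Ranger and Seurat 4.1 were used with mm10 (GRCm38); whether counting used strand is not given in the sources used here. The deposited table holds whole numbers whose total per nucleus spans only 4523 to 10638 (CV 10.7%), so they were treated as a score, taken from these totals to be corrected for depth by the authors, and not as raw counts. The plan, made with an earlier analysis of the table known, foresaw limma for such values and a count test only for raw counts. Genes were tested with limma 3.58.1 (R 4.3.3, trend) on log2(mean value per nucleus of a library + 0.01). They needed a mean of at least 0.02 and a mean summed value of at least 30. Benjamini-Hochberg adjustment ran over all genes of a population. The test was also run on data simulated from the means of D1 MSN-like nuclei alone, with planted changes larger than most seen here. That run does not show what could be called in other classes or at smaller changes. True depth per nucleus is unknown, so counting intervals were not given.

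Nuclei were clustered with Python 3.11.15 (scikit-learn 1.9.0, leidenalg 0.10.2, igraph 0.11.9) on 2000 variable genes, 30 principal components and 15 neighbours at resolution 1, which gave 52 clusters. Nuclei with a simulated-doublet score above 0.25, or in clusters with over 40% such nuclei, were left out (817, 1.67%). A cluster was named from a list when 3 or more markers had a mean over 0.1 and over 2-fold that of the remaining nuclei. These had to make up 40% of the list or include a top 10 gene of the cluster. A name was withdrawn when another list had more top 10 genes, and could be when another had a higher share of at least 50%. A name whose markers included no top 10 gene was also withdrawn when another list had 3 or more such markers. The numbers in this rule were chosen with the clusters in view. Of the nuclei kept, 7552 in 9 clusters stayed unnamed. Among these were cluster 5 (2768 nuclei, 8 of 8 oligodendrocyte markers raised) and cluster 25 (477 nuclei, 9 of 15 interneuron markers raised). The classes described thus leave such nuclei out. Gene positions are from GENCODE vM21. The genes named are the 9 members, Celsr3, the 2 of 27 related genes with the smallest unadjusted p in each of 6 main populations, and the 3 genes of most similar profile per member, of which the first are printed, and some results under this rule are not reported here; levels of other related genes, cluster-leading genes and antisense genes were chosen after their values were seen. The members and lists were chosen with earlier results of these data known. Alternatives were other pseudocounts, no filter, rescaled values, array weights, a replicate block, doublet-like nuclei kept, each library left out, clusters weighted equally, a coarser clustering and clustering with the members.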

Additional observations from a re-analysis of the deposited data

How the results depend on the processing

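None of the 84 recomputed counts of members called in the 6 main populations was above 0 under the alternatives run. The number called over all genes did depend on the setting. In D1 MSN-like nuclei, array weights called 427 of 13407 genes, against 2 in the main fit. Leaving out wild-type replicate 1 called 214 of 13520 genes there. Of 53 log2 changes there, 24 changed sign in at least 1 alternative, and the smallest adjusted p over 731 recomputed changes was 0.0736 (limma). With the replicate number as a block, 0 members were called in each of the 6 populations. The numbers were not taken to pair the libraries, since correlations of same-numbered libraries were not over 0.1 in all 3 pairs of any population. They were -0.04, 0.14 and -0.08 in all nuclei, 0.27, 0.01 and 0.18 in D1 and 0.26, 0.05 and 0.18 in D2 MSN-like nuclei. The highest correlation of differently numbered libraries was 0.19, 0.21 and 0.18 in these populations. In D1 and D2 MSN-like nuclei the first pair exceeded it, so a pairing is not excluded. The block called 5 genes in D2 MSN-like nuclei, against 1 without it, and 3 against 2 in D1 MSN-like nuclei. Of 270 recomputed levels, 2 moved by 1 SD or more. Allowing the members among the genes clustered on moved Slc1a2 in committed oligodendrocyte precursor-like nuclei from 3.08 to 2.08. The same setting moved Gad2 in pallidal or septal GABAergic-like nuclei from 1.94 to 2.37, above the 2.13 of interneuron-like nuclei, so the order of these classes turned. The pallidal or septal class held 566 nuclei in this setting, against 414 in the main one. The committed precursor class held 439, against 457. The cause of these moves was not tested. Among alternatives chosen after seeing the data, Slc1a3 in microglia-like nuclei was called without wild-type replicate 1 (-1.09, limma adjusted p = 0.00308, 4 of 8297 genes called), with adjusted p from 0.196 to 0.999 in the others. Leaving out 1 library gave changes from -1.09 to -0.51. Slc1a3 in cluster 8 was called with array weights (0.51, limma adjusted p = 0.0236, 26 of 6412 genes called against 0 without weights), with adjusted p from 0.122 to 0.924 in the others. Since the values were corrected before deposit, the depth behind low values is unknown, and 3 libraries a group limit what could be called.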
